A study of Mus musculus with 42 samples.

Results

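Proteasome genes in the mouse spleen were followed through 14 days after an injection of CpG oligodeoxynucleotides (CpG ODN). The members are all genes whose symbol on the array is Psma, Psmb, Psmc, Psmd or Psme followed by a number, taken from features annotated with that symbol alone. These are 43 of the 15277 genes measured, on 69 features, and each of the 43 had a value on every array. Of them 5 are the interferon-inducible subunits Psmb8, Psmb9, Psmb10, Psme1 and Psme2, and the other 38 comprise 14 constitutive subunits of the core particle, 17 of the regulatory cap, 3 assembly chaperones, the activators Psme3 and Psme4, and the tissue-specific core subunits Psma8 and Psmb11.

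The samples were spleens of female BALB/c mice, labelled wild type (WT) for untreated mice, control ODN and CpG ODN up to 72 h and with no genotype in the labels of the later groups, and no age given. The CpG groups had 400 µg of CpG ODN 1555 and 1466, mixed in equal molar amounts, by intraperitoneal injection, and spleens were taken at 8 times, from 3 h, 9 h, 24 h and 72 h to days 5, 7, 9 and 14. (The labels' treatment text also writes 1555 with its last digit missing.) Control ODN 1612 and 1471, at the same dose and by the same route, were given to 1 group whose spleens were taken at 3 h, and no later time has such a control. Untreated mice gave 6 arrays and each of the other 9 groups 4, which the submitters call independent biological replicates. Whole-spleen cDNA, labelled with Cy5, was hybridised with cDNA of a common mouse reference RNA, labelled with Cy3, so each value is a log2 ratio of spleen over reference. A value says nothing of how much of one transcript there is next to another, and a log2 difference of 1 between groups is 2 times the level. Base and direction of the ratios were inferred from the values.

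The proteasome is the protease complex that degrades proteins tagged with ubiquitin. Its core particle is a barrel of alpha rings (Psma genes) around beta rings (Psmb genes), whose catalytic subunits are encoded by Psmb5, Psmb6 and Psmb7. The regulatory cap, built from ATPases (Psmc genes) and non-ATPase subunits (Psmd genes), recognises and unfolds substrates. In cells exposed to interferons, and constitutively in many lymphoid cells, newly built cores take up Psmb8, Psmb9 and Psmb10 in place of Psmb5, Psmb6 and Psmb7. This immunoproteasome, often capped by the PA28 activator of Psme1 and Psme2 subunits, shifts cleavage toward peptides that fit MHC class I molecules. The spleen, with its B cells, T cells, macrophages and dendritic cells, is a tissue in which both forms are found.

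The 250 bases before the start site are shown for Psmb8 and Psmb9 and for their constitutive counterparts Psmb5 and Psmb6, as 2 of the 3 pairs of subunits that are compared array by array. The sequences are those of RefSeq for the build GRCm38.p6, read on the gene's strand from 5′ to 3′: Psmb8 at chr17:34197945-34198194 (plus strand), Psmb9 at chr17:34187331-34187580 (minus strand), Psmb5 at chr14:54617996-54618245 (minus strand) and Psmb6 at chr11:70525107-70525356 (plus strand). Capitals mark a gamma-activated site in Psmb8, the core of an antioxidant response element in Psmb5 and Psmb6, and a CCAAT box on the opposite strand in Psmb9.
Psmb8: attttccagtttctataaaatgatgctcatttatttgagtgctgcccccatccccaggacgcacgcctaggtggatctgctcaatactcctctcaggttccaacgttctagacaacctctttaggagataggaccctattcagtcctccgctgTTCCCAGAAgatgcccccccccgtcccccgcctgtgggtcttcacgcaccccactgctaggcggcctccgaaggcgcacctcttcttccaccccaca
Psmb9: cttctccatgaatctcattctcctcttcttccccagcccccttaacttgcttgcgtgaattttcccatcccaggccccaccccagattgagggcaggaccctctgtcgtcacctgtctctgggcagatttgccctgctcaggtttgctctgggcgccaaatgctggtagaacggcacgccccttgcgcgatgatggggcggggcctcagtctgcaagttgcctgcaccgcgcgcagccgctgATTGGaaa
Psmb5: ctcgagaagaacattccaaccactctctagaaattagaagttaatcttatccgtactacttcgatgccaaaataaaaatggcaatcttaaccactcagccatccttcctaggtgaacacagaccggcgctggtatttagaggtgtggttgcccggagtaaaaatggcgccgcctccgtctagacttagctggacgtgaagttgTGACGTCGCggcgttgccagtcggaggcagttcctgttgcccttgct
Psmb6: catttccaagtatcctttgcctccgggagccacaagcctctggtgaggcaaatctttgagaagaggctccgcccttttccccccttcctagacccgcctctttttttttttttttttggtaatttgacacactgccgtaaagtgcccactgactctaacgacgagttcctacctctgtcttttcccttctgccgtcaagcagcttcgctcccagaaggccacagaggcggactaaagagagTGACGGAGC
Motifs were searched as letters on both strands of windows of this length before the start site, in 32851 promoters in all and in 39 promoters of 36 members. The gamma-activated site (TTCNNNGAA), bound by STAT dimers, occurred in 7.02% of all promoters and among the members only in Psmb8, at -97 to -89 from the start site. The interferon-stimulated response element (GAAA and again GAAA, with any 2 bases between) was found in 2.98% of all promoters and in 3 members, Psmb3, Psmd4 and Psmd9. It was found in 0 of the inducible subunits that were among the 36 members searched. The remaining members had no promoter sequence to search. The antioxidant response element core (TGACNNNGC), recognised by cap'n'collar factors such as those encoded by Nfe2l1 and Nfe2l2, occurred in 10.16% of all promoters and in the members Psmb5, Psmb6, Psmc6, Psmd12 and Psmd9. CCAAT was present in 33.85% of all promoters and in 14 members, Psmb9 among them at -8 to -4. Psmb9 lies head to head with Tap1, a subunit of the peptide transporter, with 225 bases between their start sites, so the windows before their starts share those 225 bases on opposite strands. These matches describe letters and no binding was measured.

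In untreated spleens the lymphoid genes Cd79a (5.64 ± 0.55, SD, n = 6), Cd3e (1.11 ± 0.24) and H2-Aa (6.79 ± 0.12) and the red-cell gene Hbb-b1 (6.83 ± 0.78) read above the reference, so the defining markers of spleen were present. Ptgs2 (-4.79 ± 0.40) and Fn1 (-3.80 ± 0.28) read below it. Each array lacked values for 173 to 1740 of the 30601 features, and 8 arrays lacked more than 1000. The database numbers in the sample titles were split into 10 runs, a new run beginning where the gap between numbers exceeded 12. Of these runs 4 hold 1 array, and what they stand for is not stated. Only 1 untreated array shares a run with treated arrays, those of CpG ODN at 3 h. The arrays of 9 h and 3 of the 4 arrays of 24 h are linked to untreated ones only through the 3 h arrays. The other, 24-hour replicate 1, is alone in its run and has no such link. For control ODN and from 72 h on, treatment and run cannot be told apart in any comparison with untreated spleens, the pair tests included. Among the 4 arrays at 9 h, replicate 4 gave the lowest value for 14 of the 18 members named with values in every group.

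All 5 inducible subunits rose after CpG ODN at some time. At 9 h all 5 passed the test, at 3 h 3, at 24 h, 72 h and 5 days 4, at 7 days only Psmb9, and at 9 and 14 days 0. Of all genes tested 7.7% were called higher at 3 h, 5.07% at 9 h, 8.03% at 24 h and 8.94% at 72 h. The share was 17.5% at 5 days, 8.68% at 7 days, 8.4% at 9 days and 2.77% at 14 days. The mean of the log2 ratios of the inducible subunits was 1.21 ± 0.08 (SD, n = 6) in untreated spleens. It stood at 1.93 ± 0.16 at 3 h, 2.09 ± 0.43 at 9 h, 2.15 ± 0.14 at 24 h, 2.12 ± 0.18 at 72 h and 1.89 ± 0.22 at 5 days (SD, n = 4 each). By 7 days it was back at 1.26 ± 0.18, and it read 1.23 ± 0.14 at 9 days and 0.97 ± 0.18 at 14 days. The 38 other members had a mean of -0.14 ± 0.09 in untreated spleens, -0.04 ± 0.05 at 3 h, 0.04 ± 0.21 at 9 h, 0.24 ± 0.14 at 24 h, 0.28 ± 0.09 at 72 h and 0.30 ± 0.06 at 5 days. Their mean was 0.06 ± 0.08 at 7 days and -0.33 ± 0.10 at 14 days. The inducible mean thus lay close to its highest values at 3 h already, while the mean of the others was highest between 24 h and 5 days.

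**Figure D1:**
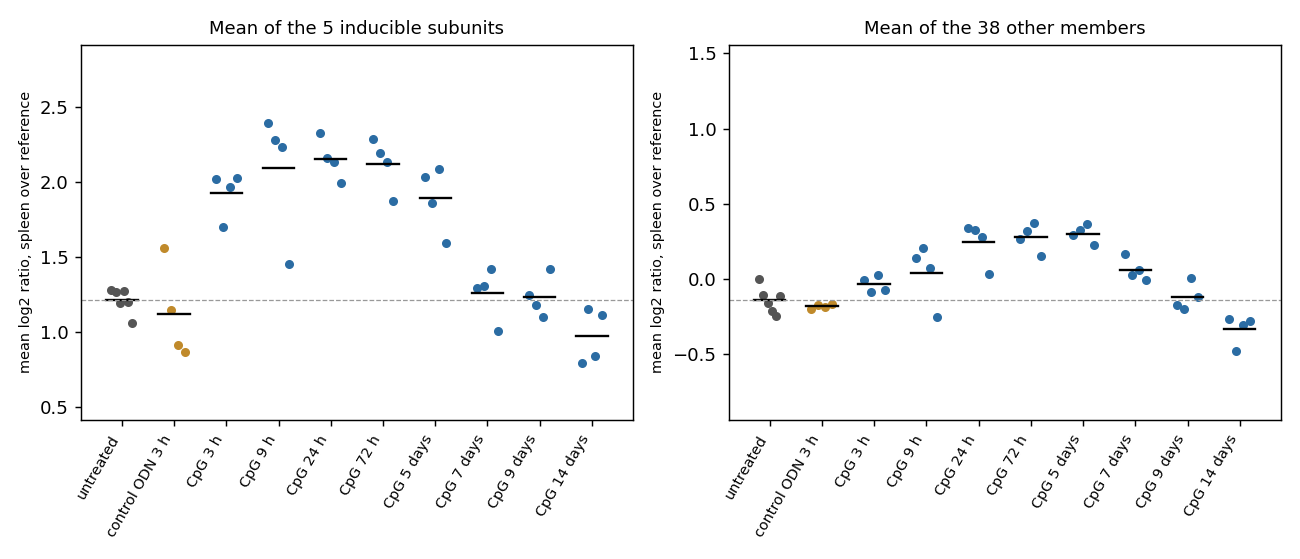
Mean log2 ratio of spleen over reference of the 5 inducible subunits (left) and of the 38 other members (right) on each of 42 arrays. Points are arrays, black lines group means and the dashed line the untreated mean, and both panels span the same height. The inducible mean rises from 1.21 untreated to 1.93 at 3 h and the other mean from -0.14 to -0.04, with the other mean highest, 0.30, at 5 days.

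Psmb9 encodes the inducible counterpart of Psmb6. It read 2.09 to 2.51 with a median of 2.26 over the 6 untreated arrays and 3.02, 3.10, 3.20 and 3.21 on the 4 arrays at 3 h. At 24 h it read 3.52, 3.59, 3.84 and 4.38, and at 72 h 3.23, 3.65, 3.78 and 4.31. Every array of these 3 times lay above every untreated array. The log2 difference from untreated was 0.84 ± 0.23 at 3 h (SE of limma's fit, adjusted p = 0.0102), 1.54 ± 0.23 at 24 h (adjusted p = 8.1e-06), 1.45 ± 0.23 at 72 h (adjusted p = 3.9e-05) and 1.03 ± 0.23 at 5 days (adjusted p = 0.000812, limma). It was the largest of all members at 3 h, 24 h, 72 h and 5 days. At 9 h, when 1 of 4 arrays (2.42, 3.08, 3.36 and 3.46) lay among the untreated ones, the difference was 0.79 ± 0.23 (limma, adjusted p = 0.0236). At 7 days it was still 0.70 ± 0.23 (limma, adjusted p = 0.0347), but leaving out 7-day replicate 1, 2 or 3, or untreated replicate 2, 3 or 6, ended that call (adjusted p up to 0.152). Without 9-hour replicate 1, 2 or 3 the 9 h call was lost (adjusted p up to 0.114), and without the arrays that lacked over 1000 features Psmb9 missed the threshold at 9 h (adjusted p = 0.0607) and 5 days (0.67, adjusted p = 0.0769).

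Psmb8, the inducible counterpart of Psmb5, moved in the same window. Its values were 1.37 to 1.82 with a median of 1.53 in untreated spleens, 2.00, 2.41, 2.54 and 2.56 at 3 h, 2.28, 2.37, 2.55 and 2.77 at 24 h, and 2.18, 2.23, 2.54 and 2.82 at 72 h. Groups did not overlap at these times, whereas at 9 h (1.38, 2.38, 2.70 and 2.77) and at 5 days (1.58, 2.34, 2.41 and 2.56) 1 array read like an untreated one. It rose by 0.81 ± 0.21 at 3 h (limma, adjusted p = 0.00634), 0.74 ± 0.21 at 9 h (adjusted p = 0.019), 0.93 ± 0.21 at 24 h (adjusted p = 0.00262), 0.87 ± 0.21 at 72 h (adjusted p = 0.00481) and 0.65 ± 0.21 at 5 days (adjusted p = 0.0166). At 7 days the 4 arrays read 1.36 to 1.63, within the untreated range or just below it (difference -0.10 ± 0.21, limma, adjusted p = 0.809). The 9 h call was lost without 9-hour replicate 1, 2 or 3 (adjusted p up to 0.132), and the 5-day call without 5-day replicate 1 or 3 (adjusted p up to 0.0751).

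Psmb10, which replaces Psmb7 in the immunoproteasome, was called from 9 h to 5 days. It read 1.02 to 1.51 (median 1.20) in untreated spleens and 1.41, 1.81, 1.87 and 2.01 at 3 h, a difference of 0.55 ± 0.20 that missed the threshold (limma, adjusted p = 0.0713). The lowest of these arrays, replicate 3, lacked the higher-reading of its 2 features, and the features differed from untreated spleens by 0.85 (3 arrays) and 0.51 (4 arrays). At 9 h it read 1.63, 2.03, 2.44 and 2.57, and at 72 h 1.65, 2.40, 2.41 and 2.52, all above the untreated arrays. It was 0.94 ± 0.20 higher at 9 h (limma, adjusted p = 0.00119), 0.74 ± 0.20 at 24 h (adjusted p = 0.0125), 1.02 ± 0.20 at 72 h (adjusted p = 0.000689) and 0.79 ± 0.20 at 5 days (adjusted p = 0.00271). On day 7 it stood at 0.50, 0.91, 0.92 and 1.12, where 3 of 4 arrays lay below every untreated one (difference -0.36 ± 0.20, limma, adjusted p = 0.229). Without 24-hour replicate 2 its 24 h call was lost (adjusted p = 0.0528), and so it was on the complete feature alone (0.53, adjusted p = 0.104). Without 3-hour replicate 3 it was called at 3 h (0.67, adjusted p = 0.0423).

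Psme1 and Psme2 encode the alpha and beta subunits of PA28. Psme1 read 0.71 to 1.15 (median 0.93) in untreated spleens, 1.33, 1.50, 1.73 and 1.85 at 3 h, 1.48, 1.72, 1.72 and 1.73 at 9 h, and 1.71, 1.84, 2.04 and 2.31 at 24 h. From 3 h to 5 days each of its 20 CpG arrays lay above all 6 untreated arrays. It rose by 0.68 ± 0.15 at 3 h (limma, adjusted p = 0.0013), 0.74 ± 0.15 at 9 h (adjusted p = 0.00071), 1.05 ± 0.15 at 24 h (adjusted p = 3.46e-06), 0.86 ± 0.15 at 72 h (adjusted p = 0.00016) and 0.75 ± 0.15 at 5 days (adjusted p = 0.00025), and leaving out any 1 array ended none of these 5 calls. Psme2 had a shorter course. Its values were -0.30 to 0.53 (median 0.04) in untreated spleens, 0.34, 0.66, 0.82 and 1.18 at 3 h, and 0.35, 1.41, 1.47 and 1.66 at 9 h, and 1 array of each of these times lay within the untreated range. The difference reached 1.17 ± 0.28 at 9 h (limma, adjusted p = 0.00489), after 0.70 ± 0.28 at 3 h (adjusted p = 0.117) and before 0.42 ± 0.28 at 24 h (adjusted p = 0.363) and 0.32 ± 0.28 at 72 h. Psme2 rests on 1 feature, and RefSeq lists a second copy of the gene, Psme2b, so signal from both cannot be told apart.

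**Figure D2:**
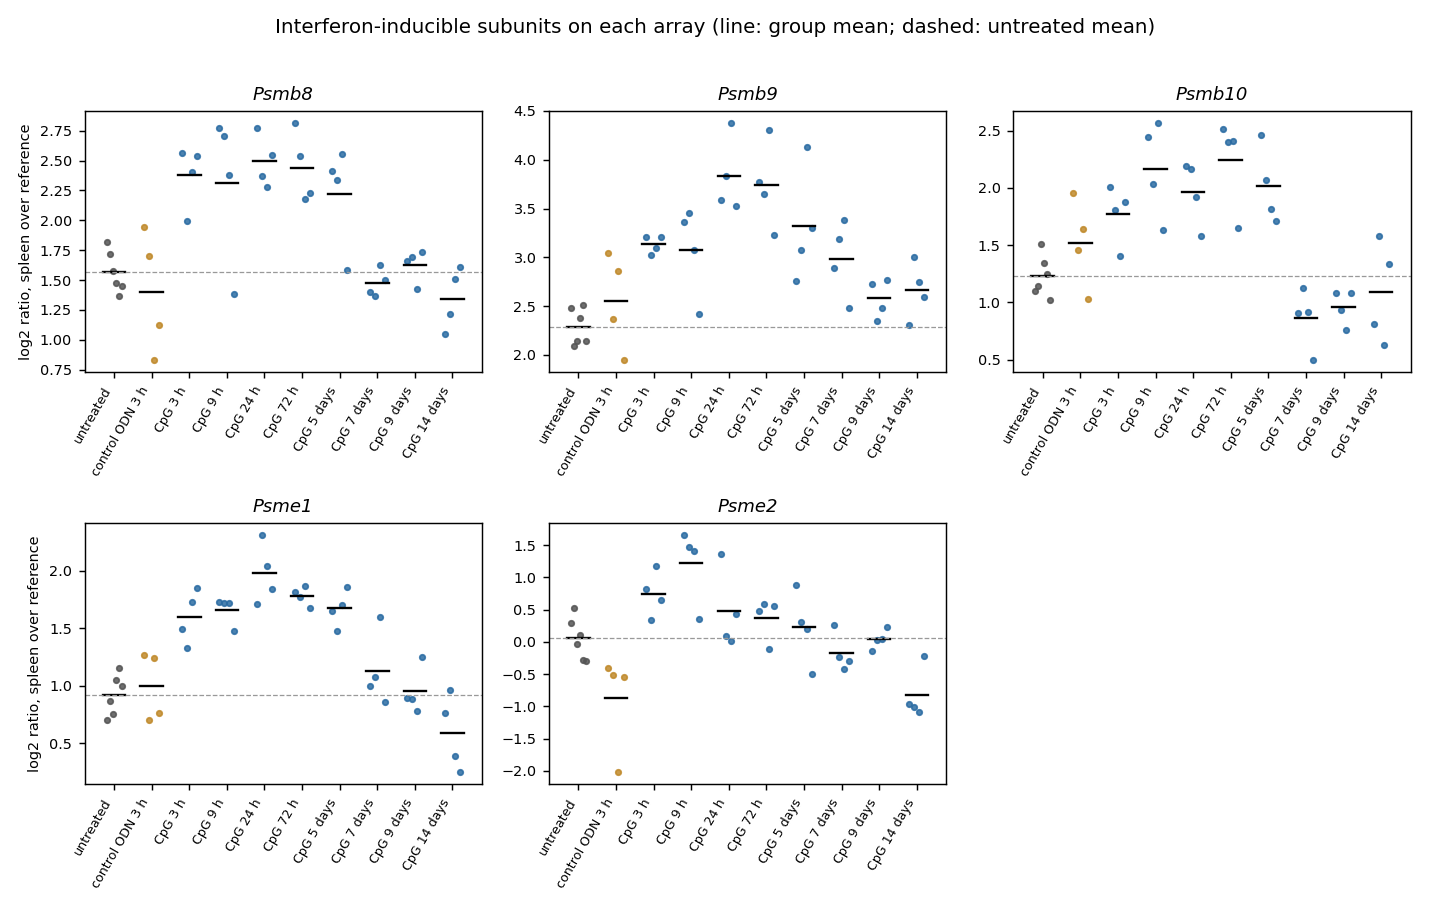
Log2 ratio of spleen over reference for the 5 inducible subunits on every array, by group (6 untreated arrays, 4 in each other group), each panel with its own scale. Points are arrays, black lines group means and the dashed line the untreated mean. Psmb9 reads 3.52 to 4.38 at 24 h against 2.09 to 2.51 untreated, and Psme2 is highest at 9 h.

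The control ODN asked whether an oligodeoxynucleotide that is not the CpG mixture moved these genes. Against untreated spleens 0 of 43 members passed limma's test at 3 h, 12 had an unadjusted p below 0.05, and 3.52% of all 15084 genes tested were called, 2.45% higher and 1.07% lower. The arrays of 1 member, Psme2, did not overlap with untreated ones, as for 3.77% of genes. Psme2 had the largest difference: it read -2.02, -0.54, -0.51 and -0.41 after control ODN, below all untreated arrays (-0.92 ± 0.28, limma, adjusted p = 0.0547). Psmb9 differed by 0.27 ± 0.23 (limma, adjusted p = 0.513), with arrays at 1.95, 2.37, 2.86 and 3.04 on both sides of the untreated range. Psmb10 differed by 0.29 ± 0.20 (adjusted p = 0.383), and Psme1 by 0.07 ± 0.15 (adjusted p = 0.808). Without control replicate 4 the count was 8 instead of 0, with Psme2 among them (-1.03, adjusted p = 0.0222), and without untreated replicate 4 it was 1.

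CpG ODN set directly against control ODN at 3 h left 7 members higher and 0 lower, where 20.7% of all genes were called, 9.23% higher and 11.5% lower, and 8 of 43 members did not overlap (20.1% of genes). The control ODN arrays and the CpG arrays of 3 h lie in different runs of database numbers, so treatment and run cannot be told apart here. Psme2 led, 1.62 ± 0.31 higher after CpG ODN (limma, adjusted p = 0.000208), with 4 CpG arrays at 0.34 to 1.18 above 4 control arrays at -2.02 to -0.41. Psmb8 was 0.98 ± 0.23 higher (adjusted p = 0.00218) and Psme1 0.60 ± 0.17 higher (adjusted p = 0.008). The value for Psmb8 depends on its features. Features 1 and 2 read 2.42 ± 0.31 and 2.60 ± 0.31 after CpG ODN against 2.08 ± 0.58 and 1.92 ± 0.41 after control ODN (SD, n = 4). Feature 3 read 2.11 ± 0.54 against 0.21 ± 1.65, and 1.18 ± 0.44 (SD, n = 6) when untreated, so that it alone was lower after control ODN than untreated. Psmb9 (0.58 ± 0.25, adjusted p = 0.102) and Psmb10 (0.25 ± 0.22, adjusted p = 0.453) did not pass limma's test in this comparison. The 4 other genes called were Psmd11 (0.87 ± 0.21), Psmd13 (0.68 ± 0.24), Psmb11 (0.60 ± 0.18) and the chaperone gene Psmd10 (0.49 ± 0.14). For 3 of these the larger part lay on the control side: against untreated spleens Psmd13 differed by -0.67 after control ODN and 0.01 after CpG ODN, Psmb11 by -0.54 and 0.06, and Psmd11 by -0.51 and 0.37. Psmd10 differed by -0.21 after control ODN and 0.28 after CpG ODN, and none of these 8 values was called. Without control replicate 3 Psmb11 was no longer called (adjusted p = 0.137). Fitted on these 8 arrays alone, the comparison called 3 members.

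At 3 h against untreated spleens 5 of 43 members were higher and 0 lower, where 11.6% of 15253 genes were called, 7.7% higher and 3.93% lower. The arrays of 5 of 43 members did not overlap with the untreated ones, as for 13.6% of genes (Psma6, Psmb8, Psmb9, Psme1 and Psmd10, which was not called). The called members were Psmb8, Psmb9 and Psme1 of the inducible set, and of the 38 others only the alpha-ring genes Psma5 (0.55 ± 0.15, limma, adjusted p = 0.0107) and Psma6 (0.50 ± 0.16, adjusted p = 0.0318), whose call was lost without any of 7 of the 10 arrays (adjusted p up to 0.104). The median log2 difference was 0.70 for the inducible set, 0.13 for the others and -0.02 for all genes tested. At 9 h 10 members were higher and 0 lower (8.52% of 15129 genes called, 5.07% higher and 3.45% lower), the 5 inducible subunits with Psma5, Psma6, Psma7, Psmb3 and Psmb6, and 4 of 43 did not overlap with untreated arrays (8.88% of genes). Of the 17 cap subunits 0 passed limma's test at either time, while 0 and 3 of them had an unadjusted p below 0.05. Between 9 h and 3 h a single member differed, Psmb6 (0.57 ± 0.15, limma, adjusted p = 0.0489; 1.44% of genes called, 0.291% higher; groups not overlapping for 2 of 43 members and 7.36% of genes), and leaving out any of 7 of the 8 arrays ended that call. Only 1 untreated array shares a run with CpG arrays of 3 h. When the runs entered the fit as fixed terms (genes without missing values only), 0 members were called at 3 h and 9 h and 2 at 24 h, against 5, 10 and 21 on the same genes without the block. Within that shared run the 2 CpG arrays lay above the untreated array for 5 of 5 inducible subunits (median log2 difference 0.76) and for 25 of 38 others (0.17). Without 9-hour replicate 2, or without the arrays that lacked over 1000 features, 6 members were called at 9 h.

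At 24 h nearly the whole core particle was higher. Of its 14 constitutive subunits 13 rose, 7 of 7 in the alpha ring and 6 of 7 in the beta ring, with a median log2 difference of 0.70 against 0.02 for all genes tested. In all 21 members were higher and 0 lower at 24 h, where 10.9% of 15190 genes were called, 8.03% higher and 2.87% lower, and 15 of 43 members did not overlap with untreated arrays (8.09% of genes). Psma5 rose by 0.96 ± 0.15 (limma, adjusted p = 2.18e-05). Its arrays read 0.30, 0.41, 0.46 and 0.57 against -0.82 to -0.11 (median -0.58) in untreated spleens, with no overlap. Psmb2, a beta-ring subunit without a catalytic site, read 0.28, 0.46, 0.62 and 0.78 against -0.49 to -0.16 (median -0.30). It rose by 0.85 ± 0.13 (limma, adjusted p = 7.14e-06), again with no overlap. Psma2 (0.78 ± 0.19), Psma6 (0.78 ± 0.16) and Psma7 (0.74 ± 0.17) followed, and Psmb3 (0.35), the 1 core subunit not called at 24 h, was called at 9 h, 72 h and 5 days.

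The cap moved less at 24 h. Of its 17 subunits 4 rose, with a median difference of 0.30: the ATPase gene Psmc2 (0.71 ± 0.16, limma, adjusted p = 0.00301), Psmd14, whose product removes ubiquitin from substrates (0.61 ± 0.15, adjusted p = 0.00569), Psmd12 (0.50 ± 0.15) and Psmd6 (0.43 ± 0.15). The mean of the 14 core subunits minus that of the 17 cap subunits, taken within each array, was 0.06 ± 0.10 in untreated spleens (SD, n = 6, from -0.07 to 0.19) and 0.46 ± 0.11 at 24 h (SD, n = 4, from 0.37 to 0.62). The 24 h arrays all lay above the untreated ones. At 3 h and 9 h it was 0.19 ± 0.07 and 0.25 ± 0.08, at 72 h and 5 days 0.24 ± 0.13 and 0.21 ± 0.14, at 7 and 9 days 0.07 ± 0.05 and 0.06 ± 0.08, and at 14 days again 0.23 ± 0.14, with the core at -0.39 and the cap at -0.62. As the members share arrays, and since the split into core and cap was made with earlier results known, these values are a description without a test.

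At 72 h 26 members were higher and 0 lower (15% of 15161 genes called, 8.94% higher and 6.01% lower), and 17 of 43 did not overlap with untreated arrays (11.8% of genes). Of the core 13 of 14 subunits were called (now with Psmb3 and without Psmb6, 0.18 ± 0.14), with a median difference of 0.57, and 7 of 17 cap subunits (median 0.39) and the chaperone genes Psmd9 and Psmd10 were higher too, Psmd9 with a call (0.43 ± 0.15, limma, adjusted p = 0.0472) that was lost without any of 8 of the 10 arrays and that 1 of its 3 features did not share (-0.21). Psmc2 read 0.11, 0.29, 0.32 and 0.58 against -0.78 to -0.16 (median -0.51) in untreated spleens, without overlap, and rose by 0.81 ± 0.16 (limma, adjusted p = 0.000883). Psmd1, a scaffold subunit of the cap, rose by 0.64 ± 0.17 and Psmc3 by 0.59 ± 0.16. The 72 h count was 16 without replicate 3, 17 without replicate 2 and 12 without the arrays that lacked over 1000 features.

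At 5 days 29 members were higher and 1 lower, the most of any time, but far more genes moved then: 30.9% of 15006 genes were called, 17.5% higher and 13.4% lower, and 23.2% did not overlap with untreated arrays, as for 19 of 43 members. The higher ones were 12 of 14 core subunits, 9 of 17 cap subunits, 2 of 3 chaperones, Psme3 and Psme4, and 4 of the 5 inducible subunits. Psmd9, which helps assemble the ATPase ring, read 0.70, 0.92, 1.08 and 1.10 against -0.10 to 0.30 (median 0.19), with no overlap. It rose by 0.80 ± 0.15 (limma, adjusted p = 9.57e-05), after -0.16 ± 0.15 at 9 h and 0.15 ± 0.15 at 24 h. Its 3 features disagreed: at 5 days they differed from untreated spleens by 0.03, 1.37 and 1.02, at 72 h by -0.21, 1.03 and 0.46, and at 7 days by -0.23, 1.22 and 0.63. Psmc2 (0.83 ± 0.16), Psmd3 (0.72 ± 0.16) and Psmc6 (0.69 ± 0.17) were the highest of the cap. Without the arrays that lacked over 1000 features, 2 of which are 5-day arrays, 15 members were called at 5 days.

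**Figure D3:**
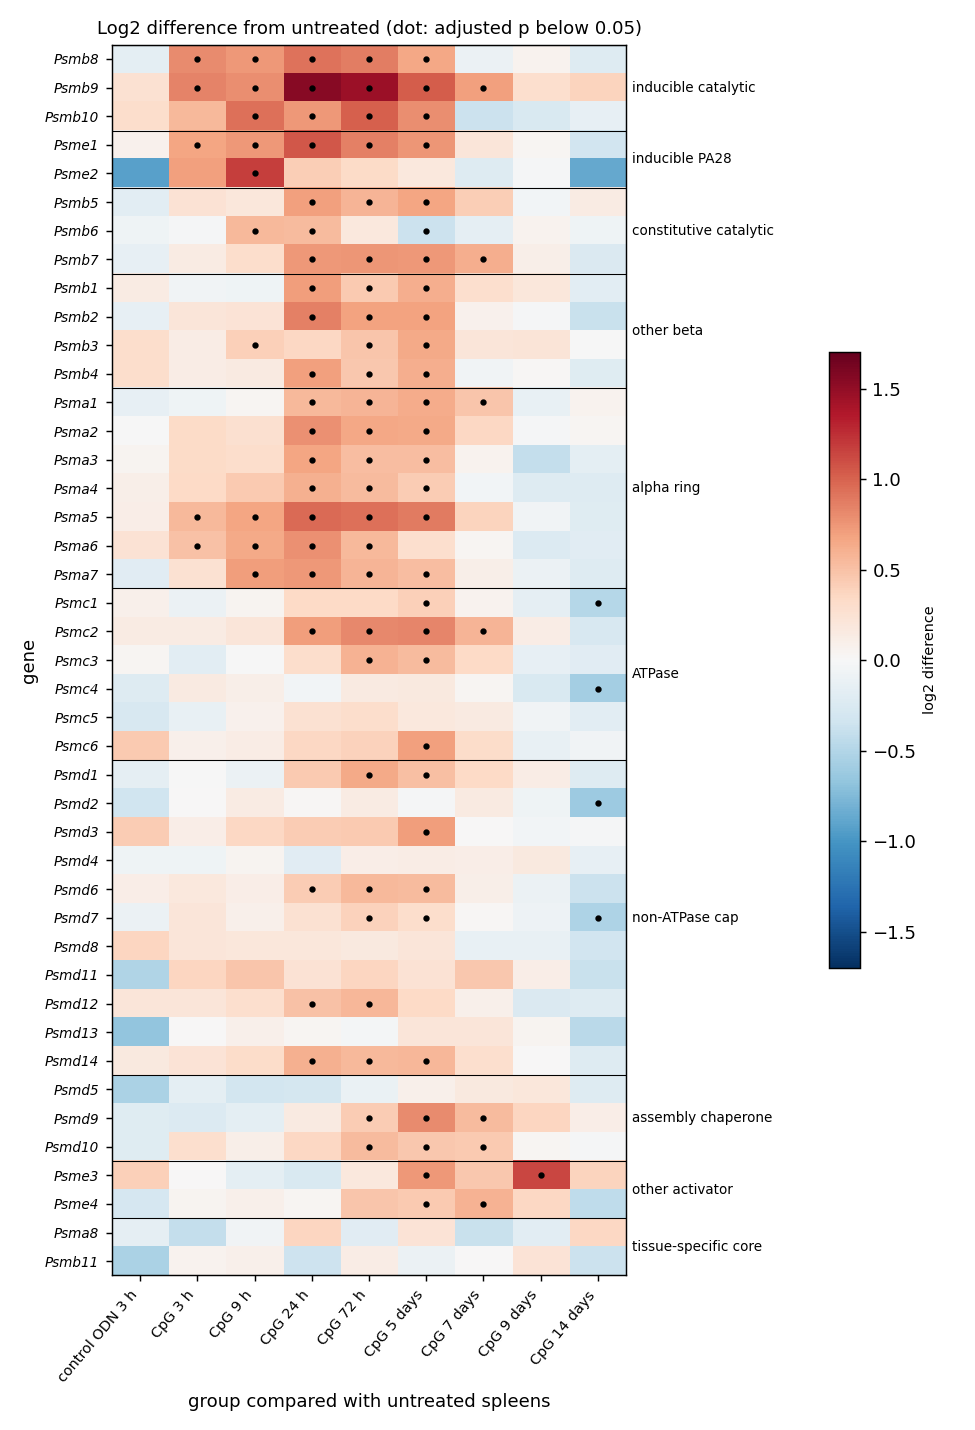
Log2 difference from untreated spleens for each of the 43 members (rows, by role) in the control ODN group and at 8 times after CpG ODN (columns). Colour gives the difference from the fit and a dot an adjusted p below 0.05 (limma). Of the 5 inducible rows 3 carry dots from 3 h, the alpha ring in all 7 rows at 24 h and 72 h, and the cap rows fewer and later ones.

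The constitutive catalytic subunits did not move as a block. Psmb7, with the trypsin-like site, rose by 0.73 ± 0.17 at 24 h (limma, adjusted p = 0.0031), 0.75 ± 0.17 at 72 h (adjusted p = 0.00298), 0.74 ± 0.17 at 5 days (adjusted p = 0.00105) and 0.61 ± 0.17 at 7 days (adjusted p = 0.0113). It read -0.04, 0.28, 0.31 and 0.45 at 24 h against -0.75 to -0.17 (median -0.51) in untreated spleens. On its feature without missing values alone, Psmb7 missed the threshold at 24 h (0.50, adjusted p = 0.0646) and 7 days (0.30, adjusted p = 0.271). Psmb5, with the chymotrypsin-like site, rose by 0.70 ± 0.20 at 24 h (adjusted p = 0.0177), 0.58 ± 0.20 at 72 h (adjusted p = 0.0443) and 0.68 ± 0.20 at 5 days (adjusted p = 0.00871). Its 72 h value hangs on 1 array: the 4 read -0.27, 0.07, 0.32 and 1.28 against -0.40 to 0.07 (median -0.26) untreated, and without replicate 3 the difference was 0.27 (adjusted p = 0.380). The 72 h call of Psmb5 was lost without any of 7 of the 10 arrays. Its 24 h call was lost without replicate 2 or 3 (adjusted p up to 0.131) and its 5-day call without replicate 3 (adjusted p = 0.0673).

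Psmb6, with the caspase-like site, went up early and down later. It read 0.14, 0.14, 0.16 and 0.33 at 9 h, above all untreated arrays (-0.55 to -0.10, median -0.38), and -0.11, 0.26, 0.27 and 0.29 at 24 h. At 5 days it read -0.97, -0.65, -0.65 and -0.63, below all of them. It rose by 0.55 ± 0.14 at 9 h (limma, adjusted p = 0.0079) and 0.54 ± 0.14 at 24 h (adjusted p = 0.00975), and fell by 0.37 at 5 days (SE 0.14, limma, adjusted p = 0.0428), the only member called lower at that time. The 5-day call was lost without untreated replicate 4, 5 or 6 or 5-day replicate 2, 3 or 4 (adjusted p up to 0.167). It was also lost with quantile or scale normalization, on the 2 groups alone, over single features, with the replicate block, with runs as a random block and without the arrays lacking over 1000 features (adjusted p from 0.0537 to 0.204), while every value stayed negative. RefSeq lists pseudogenes of Psmb5, Psmb6, Psmb7 and Psma5, whose part in these signals was not tested.

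Each inducible subunit was then set against the constitutive one it replaces, as the difference of their log2 ratios on the same array, in 27 exact permutation tests (all 210 splits of 4 against 6 arrays, 2-sided, smallest possible p = 0.00476). Of the 27 tests 6 passed after Benjamini-Hochberg adjustment over them. Psmb9 over Psmb6 was 2.65 ± 0.23 in untreated spleens (SD, n = 6) and higher at 5 times. It changed by 0.86 at 3 h (3.51 ± 0.22, SD, n = 4, exact permutation test, adjusted p = 0.0321), 1.01 at 24 h (3.66 ± 0.44, adjusted p = 0.0321) and 1.40 at 5 days (4.04 ± 0.58, adjusted p = 0.0321), where all 4 arrays lay above all untreated ones. It changed by 1.27 at 72 h (3.91 ± 0.69) and 0.85 at 7 days (3.50 ± 0.54), each with 3 of 4 arrays above and an adjusted p of 0.0429 in the exact permutation test. At 9 h, when Psmb6 itself was up, the change was 0.24 (2.89 ± 0.42, exact permutation test, adjusted p = 0.359).

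Psmb8 over Psmb5 passed at no time. It changed by 0.57 at 3 h, where all 4 arrays lay above the untreated ones (2.36 ± 0.21 against 1.79 ± 0.31, exact permutation test, adjusted p = 0.0551), and by 0.55 at 9 h (adjusted p = 0.116). From 24 h on, when Psmb5 was higher too, it changed by 0.23 at 24 h, 0.30 at 72 h and -0.02 at 5 days. At 7 days it changed by -0.52, with 3 of 4 arrays below all untreated ones (exact permutation test, adjusted p = 0.1), and at 14 days by -0.36 (adjusted p = 0.182). These values rest on the mean of 3 features of Psmb8, which did not move alike. The features differed from untreated spleens by 1.08, 1.19 and 0.51 at 24 h and by -0.28, -0.27 and 0.27 at 7 days. Psmb10 over Psmb7 changed by 0.64 at 9 h (2.35 ± 0.38 against 1.71 ± 0.33, exact permutation test, adjusted p = 0.0804) and by 0.00 at 24 h. At 7 days it fell by 0.98, with all 4 arrays below all untreated ones (0.74 ± 0.27, exact permutation test, adjusted p = 0.0321), when Psmb7 was still called higher and Psmb10 was not. The size rests on both features of Psmb7, which at 7 days differed from untreated spleens by 0.30 and 0.92. With each array scaled by its spread, Psmb9 over Psmb6 at 7 days missed the threshold (0.66, adjusted p = 0.114). Each of the 6 passing differences lost its call in 9 of the 10 omissions of 1 array (adjusted p up to 0.0918), which leave 3 against 6 or 4 against 5 arrays and fewer splits, and kept its sign in all.

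**Figure D4:**
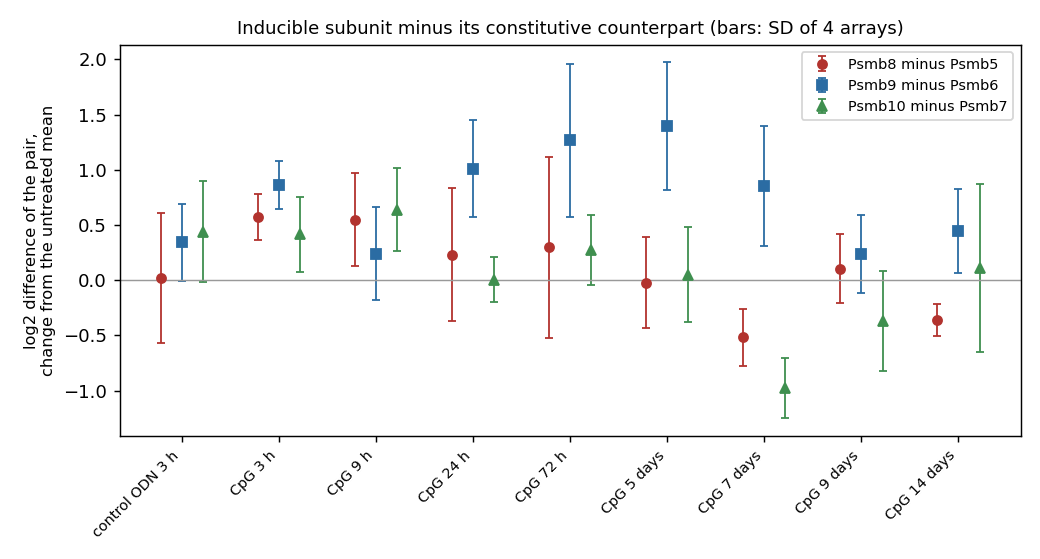
Change from the untreated mean of the log2 difference between each inducible subunit and its constitutive counterpart, by group. Markers are means and bars SD over 4 arrays. Psmb9 over Psmb6 reaches 1.40 at 5 days, and Psmb10 over Psmb7 is at -0.98 at 7 days.

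At 7 days 7 members were higher and 0 lower (15.6% of 15200 genes called, 8.68% higher and 6.89% lower), and 4 of 43 did not overlap with untreated arrays (16.3% of genes). Besides Psmb9 and Psmb7 these were Psma1 (0.47 ± 0.15), Psmc2 (0.58 ± 0.16), Psmd9 (0.54 ± 0.15), Psmd10 (0.45 ± 0.13) and Psme4 (0.59 ± 0.17). Without 7-day replicate 3 the count was 2. Without 7-day replicate 1 the call of Psmb7 was lost (adjusted p = 0.0643), and without replicate 3 those of Psmc2 and Psme4. The mean of Psmd5, Psmd9 and Psmd10 was 0.23 ± 0.11 in untreated spleens (SD, n = 6), 0.69 ± 0.14 at 5 days and 0.62 ± 0.04 at 7 days (SD, n = 4), while the core mean was -0.25 ± 0.10, 0.28 ± 0.17 and -0.06 ± 0.11. These chaperone genes did not move alike. Psmd5 differed from untreated spleens by only 0.09 at 5 days and 0.16 at 7 days. The features of Psmd9 differed by -0.23, 1.22 and 0.63 at 7 days.

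At 9 days 1 member was higher and 0 lower (13.5% of 15142 genes called, 8.4% higher and 5.12% lower), and 3 of 43 did not overlap with untreated arrays (13.2% of genes). This was Psme3, which encodes the nuclear activator PA28 gamma. It read 2.48, 2.58, 2.73 and 3.18 at 9 days against 1.42 to 1.89 (median 1.56) in untreated spleens, with no overlap, and was 1.14 ± 0.26 higher (limma, adjusted p = 0.00268). Its differences at other times were 0.00 ± 0.26 at 3 h, -0.25 ± 0.26 at 24 h, 0.74 ± 0.26 at 5 days (limma, adjusted p = 0.0275) and 0.46 ± 0.26 at 7 days (adjusted p = 0.249). The 5-day arrays spread widely (1.58, 2.09, 2.37 and 3.35), and without replicate 4 that difference was 0.41 (adjusted p = 0.245). Psme4, the activator PA200, read 0.31, 0.32, 0.32 and 0.62 at 5 days and 0.35, 0.48, 0.60 and 0.70 at 7 days against -0.28 to 0.40 (median -0.20) untreated, so the groups overlapped. It was 0.45 ± 0.17 higher at 5 days (limma, adjusted p = 0.0392) and 0.59 ± 0.17 at 7 days (adjusted p = 0.0139). Leaving out any of 8 arrays ended the 5-day call (adjusted p up to 0.134).

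**Figure D5:**
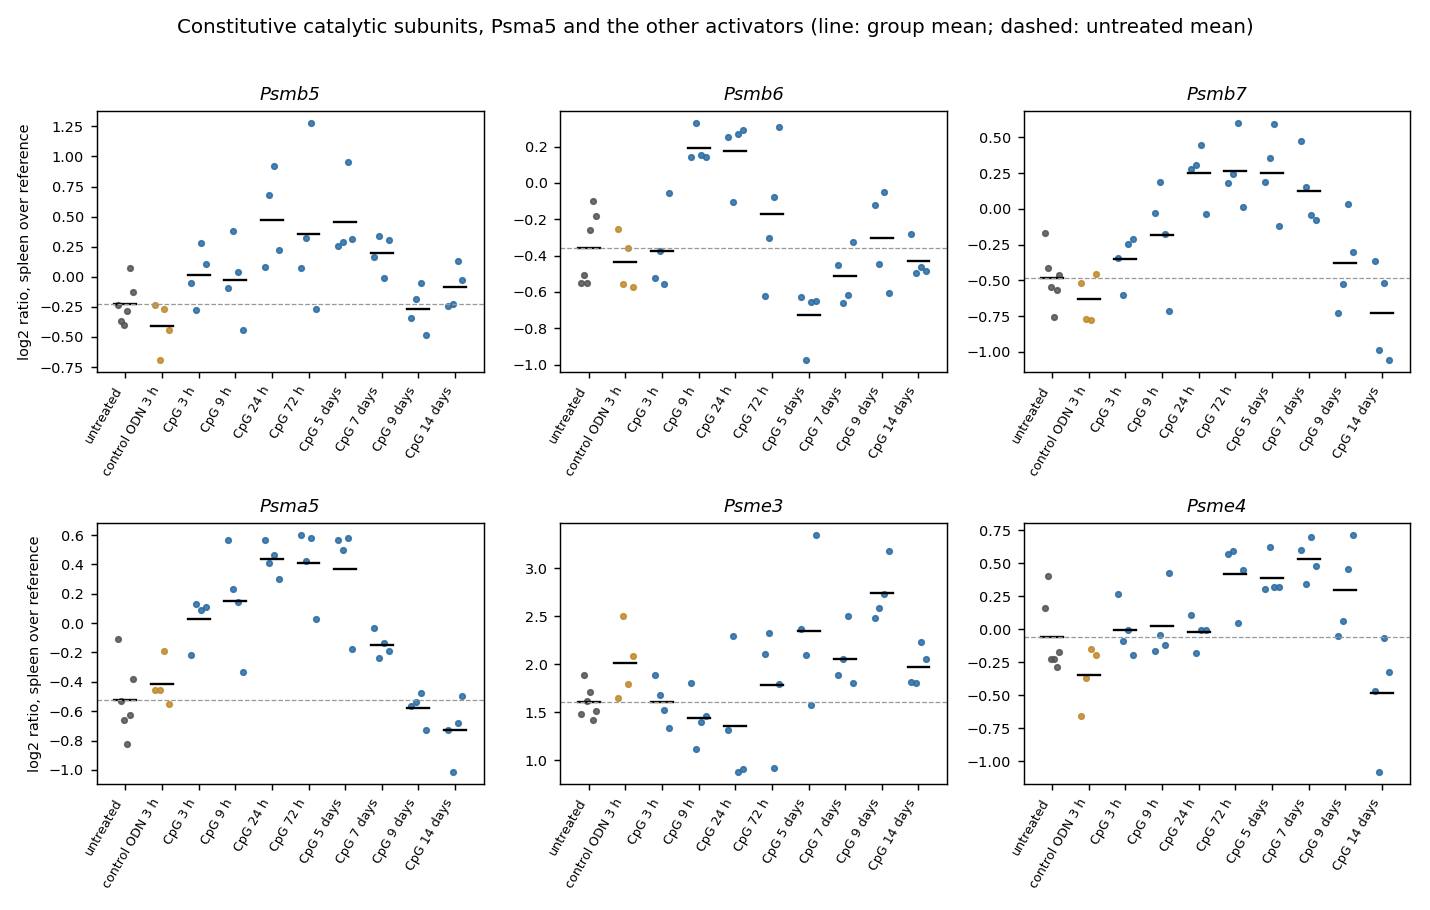
Log2 ratio of spleen over reference on every array for the constitutive catalytic subunits Psmb5, Psmb6 and Psmb7, the alpha-ring subunit Psma5 and the activators Psme3 and Psme4, each panel with its own scale. Points are arrays, black lines group means and the dashed line the untreated mean. Psmb6 is above the untreated arrays at 9 h and below them at 5 days, and Psme3 is highest at 9 days.

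At 14 days 0 members were higher and 4 lower, where 4.54% of 15003 genes were called, 2.77% higher and 1.77% lower. All 4 belong to the cap: Psmd2 (-0.62 ± 0.16, limma, adjusted p = 0.0198), Psmc4 (-0.58 ± 0.16, adjusted p = 0.0293), Psmd7 (-0.52 ± 0.12, adjusted p = 0.00757) and Psmc1 (-0.48 ± 0.12, adjusted p = 0.0208). In each of them the 14-day and untreated arrays did not overlap, as was the case for 6 of 43 members and 7.63% of genes. Of the 17 cap subunits 17 had a negative difference (median -0.27), and the cap mean was -0.62 ± 0.13 (SD, n = 4) and in untreated spleens -0.31 ± 0.09 (SD, n = 6). Negative differences were not limited to the cap. A positive one was found in only 3 of the 14 constitutive core subunits (median -0.18) and 1 of the 5 inducible subunits (median -0.22). Psme2 stood at -1.09, -1.01, -0.96 and -0.22, a difference of -0.87 ± 0.28 that missed the threshold (limma, adjusted p = 0.0653) but was called without replicate 4 (-1.07, adjusted p = 0.0472). The count of 4 became 2 without 14-day replicate 3, 0 without replicate 2, and 0 without the arrays that lacked over 1000 features, which include 2 of the 14-day arrays.

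The 72 h and 14-day arrays lie in the same run of database numbers, so their comparison crosses no run. There 34 members were higher at 72 h and 0 lower, where 29.1% of 14906 genes were called, 15.5% higher and 13.6% lower. All 5 inducible subunits differed, without overlap between the groups, as was the case for 29 of 43 members and 26.9% of genes: Psme2 (1.19 ± 0.31, limma, adjusted p = 0.00392), Psme1 (1.19 ± 0.17, adjusted p = 2.43e-06), Psmb10 (1.16 ± 0.22, adjusted p = 0.000186), Psmb8 (1.10 ± 0.23, adjusted p = 0.000573) and Psmb9 (1.08 ± 0.25, adjusted p = 0.00162). Of the core 12 of 14 were higher, led by Psma5 (1.14 ± 0.17) and Psmb2 (1.07 ± 0.14), and of the cap 14 of 17, led by Psmc2 (1.09 ± 0.18) and Psmd6 (0.91 ± 0.16). Part of these differences lay on the 14-day side. Against untreated spleens, which lie in other runs, Psme2 differed by 0.32 at 72 h and -0.87 at 14 days, neither called. The inducible mean was 0.97 at 14 days and 1.21 untreated, and the mean of the others -0.33 and -0.14. In the same run the 72 h mean lay above the control ODN mean for 5 of 5 inducible subunits (median difference 1.04) and 34 of 38 others (0.48), though those groups differ in time as well.

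Over the whole course, an F test over the 8 CpG times called 39 of 43 members, beside 63.5% of all 14557 genes tested. Among CpG times the highest mean fell at 24 h, 72 h or 5 days for 4 of 5 inducible subunits and for 29 of 38 others. Of the tissue-specific core subunits neither was called against untreated spleens. Psma8, the testis form of an alpha subunit, had its highest CpG mean at 24 h (difference 0.37 ± 0.33, and -0.40 ± 0.33 at 3 h), and its arrays spread from 1.00 to 2.19 (median 1.18) in untreated spleens alone. Psmb11, the beta subunit of thymic cortical epithelium, passed the F test (limma, adjusted p = 0.0328) and was higher at 72 h than at 14 days (0.49, adjusted p = 0.0336), with its highest mean at 9 days. Leaving out any of 6 of the 8 arrays ended the call between 72 h and 14 days (limma, adjusted p up to 0.121). At 24 h Psmb11 missed the threshold (-0.35 ± 0.16, limma, adjusted p = 0.164), though without 24-hour replicate 4 it was lower (-0.53, adjusted p = 0.0242).

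Genes around the complex were taken from lists. Of 18 measured assembly factors and regulators 0 rose at 3 h and 9 h, 5 at 24 h, 7 at 72 h, 9 at 5 days and 5 at 7 days, and 0 were lower at these times. At 9 days 2 were higher, and at 14 days 0 were higher and 1 lower. Of all genes tested 7.7% were called higher at 3 h, 5.07% at 9 h, 8.03% at 24 h and 8.94% at 72 h. The share was 17.5% at 5 days and 8.68% at 7 days. Pomp, the maturation factor of the core, was 0.81 higher at 24 h, 0.67 at 72 h and 0.50 at 5 days, and Psmg1, a chaperone of the alpha ring, 0.71, 0.62 and 0.77, each passing limma's test. The deubiquitinase genes Usp14 (0.69 at 72 h, 0.80 at 5 days) and Uchl5 (0.58 and 0.71), which act at the cap, passed at 72 h and 5 days. Nfe2l1, which encodes a transcription factor for proteasome genes, was not called at any CpG time (0.43 at 3 h, -0.31 at 24 h) and was higher after control ODN (0.61). Of 13 measured genes of peptide trimming and loading, 4 rose at 3 h, 4 at 9 h, 8 at 24 h, 4 at 72 h and 6 at 5 days, with 0 lower. Tap1 rose by 1.54 at 3 h and 1.08 at 24 h, Tap2 by 1.00 and 0.81, and Erap1, which trims peptides in the endoplasmic reticulum, by 0.61 and 0.81. Lap3, a cytosolic aminopeptidase, came later, with 0.11 at 3 h (not called) and 1.55 at 72 h. The class I heavy chain genes H2-K1 and H2-D1 were not called at any time. Of 6 measured inducers and regulators of the interferon response, Stat2, Socs1 and Irf1 rose at 3 h (2.03, 1.99 and 1.22) and 9 h (1.78, 1.83 and 1.22), and Irf1 was back at -0.01 at 24 h. Ifng was not called before 9 days (0.05 at 3 h, 0.65 at 9 days).

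The cells of the spleen changed over the same times, and in whole-spleen RNA more cells of a type and more RNA per cell cannot be told apart. At 24 h, when the core rose, 0 of 9 proliferation genes were higher and 1 lower, 3 of 7 monocyte and macrophage markers and 3 of 8 NK and cytotoxic markers were higher, and 2 of 10 T cell markers were lower. The proliferation mean was -0.51 ± 0.26 at 24 h (SD, n = 4, from -0.66 to -0.13) against -0.20 ± 0.28 (SD, n = 6, from -0.49 to 0.16) untreated. At 72 h and 5 days it was 0.60 ± 0.29 and 1.00 ± 0.20, with 5 and 8 of 9 genes higher, and at 7 days, when 2 of 14 core subunits were called, 1.14 ± 0.10 with 9 of 9 higher. T cell markers were lower for 6 of 10 at 72 h and 8 of 10 at 5 days, B cell markers for 3 of 9 and 5 of 9. Neutrophil markers were higher for 4 of 11 at 3 h and 9 h, 5 at 24 h, 6 at 72 h, 7 at 5 days, 9 at 7 days and 11 at 9 and 14 days. Of all genes tested 8.03% were called higher and 2.87% lower at 24 h. These shares were 8.94% and 6.01% at 72 h, and 17.5% and 13.4% at 5 days. Called higher were 7.7% at 3 h, 5.07% at 9 h, 8.68% at 7 days, 8.4% at 9 days and 2.77% at 14 days. Markers of exocrine pancreas spread widely within groups, with untreated list means from 0.46 to 5.45, and 0 of 8 were called at 3 h and 24 h. The part of these cells in the proteasome values was not tested.

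The genes whose 10 group means most resembled the mean profile of the inducible subunits were Mlkl (r = 0.978), Iigp1 (0.970), Ppa1 (0.957), Oasl2 (0.955), Irgm1 (0.953), Gbp4 (0.951), Ifitm3 (0.947) and Gbp2b (0.939), out of 968 candidates whose group means had an SD of at least 0.5. Among the other members, for which no such SD was required, r was 0.958 for Psma7, 0.945 for Psma4, 0.935 for Psma5, 0.066 for Psmd9 and -0.492 for Psme3. These correlations describe 10 means that share arrays and the reference.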

How the data were processed

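Two-colour oligonucleotide arrays of 42 spleen samples were used. TRIzol was used on the spleens, whose cDNA carried Cy5 while that of the universal mouse reference RNA carried Cy3, per the labels. The authors deposited 1 table of log ratios, taken as log2 of Cy5 over Cy3 from the size of the values and the levels of spleen genes. Its background correction and normalization are steps not given in the sources used here. Array medians lay between -0.014 and 0.019, and the ratios were used as deposited. Precision is limited by the number of arrays, as signal strength is not known.

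Of 30601 features, 23485 carried 1 gene symbol, 179 several and 6937 none. Features with the same symbol were averaged, giving 15277 genes, 12588 of them with a value on every array. Of the 861 pairs of arrays, 0 were identical (r from 0.746 to 0.978). All 10 groups were fitted together with limma 3.58.1 in R 4.3.3, on genes with at least 3 arrays in each group compared. A gene was called at a Benjamini-Hochberg adjusted p below 0.05 over all genes tested. Errors of differences are standard errors of that fit, and 0 missing values were imputed. Paired subunits were compared with exact permutation tests (scipy 1.17.1). The fit was tested on simulated data. Replicates are described as independent, but pooling of mice is not stated.

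Members with values in full were the 5 inducible subunits, the constitutive catalytic subunits, Psme3, Psme4, Psma8, Psmb11 and the 6 other members with the largest called difference from untreated spleens. The members and lists were chosen with earlier results of these data known. Promoter letters came from RefSeq (GRCm38.p6). Alternatives varied normalization, spread, filter, threshold, features, runs, replicate numbers and the arrays included. The omission of arrays lacking over 1000 features and the use of features without missing values alone were chosen after seeing the data. Of the members' 69 features 6 lacked a value on some array, in 6 members.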

Additional observations from a re-analysis of the deposited data

Results flagged for a closer look

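Among 18 members in 180 groups of arrays, 19 arrays lay apart from the rest of their group by Dixon's criterion, which chance gives in about 1 of 20 groups. Psmb6 had 4 of them: 0.33 at 9 h (replicate 2), -0.11 at 24 h (replicate 2), -0.97 at 5 days (replicate 2) and -0.28 at 14 days (replicate 1). Psme2 had 3, with -2.02 after control ODN (replicate 3, next array -0.54), -0.11 at 72 h (replicate 3) and -0.22 at 14 days (replicate 4). Psmb10 read 1.65 on replicate 4 at 72 h, where the next array read 2.40, and Psme1 read 1.48 on replicate 4 at 9 h. At 5 days Psmb5 read 0.96 and Psma2 1.27 on replicate 3, Psma5 -0.18 on replicate 4, Psme4 0.62 on replicate 2, and Psmb2 0.47 and Psma8 1.49 on replicate 1. The others were Psma5 (-0.21, replicate 1) and Psmb11 (-0.36, replicate 2) at 3 h, Psma6 (-0.015, replicate 4) at 24 h and Psma2 (-0.20, replicate 2) at 14 days.

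The effect over untreated spleens differed between CpG ODN and control ODN at 3 h for 4 of the 18 members. Limma's test of the difference itself called Psme2 (1.62), Psmb8 (0.97), Psmb11 (0.60) and Psme1 (0.60). In that comparison 20.7% of all genes were called, and treatment and run cannot be told apart. Some of the 18 members were named for their large called differences from untreated spleens in these data. The counts are therefore not those of an unselected set. Between 72 h and 14 days the effect differed for 13 of the 18 members, where 29.1% of all genes were called. These were Psme2 (1.19), Psme1 (1.19), Psmb10 (1.16), Psma5 (1.14), Psmb8 (1.09), Psmc2 (1.09), Psmb9 (1.08), Psmb2 (1.07), Psmb7 (0.99), Psme4 (0.90), Psma6 (0.75), Psma2 (0.63) and Psmb11 (0.49). The call of Psmb11 was lost without any of 6 of the 8 arrays.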

How the results depend on the processing

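No called difference of a named gene or subunit pair changed direction under the alternatives run. The 216 values of single genes cover the 18 named members in every comparison, called or not. Between 0 and 25 of them lost the call under a single setting, apart from the omission of single arrays and fits with runs as a fixed block. With that block, 24 of the values that could be fitted lost the call. Values never called could not lose a call, so the share of calls lost was larger than these counts over 216. Leaving out 1 array at a time gave 2052 values, again called or not, of which 83 lost the call and 14 gained it.

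Using only features with a value on all arrays, where a gene has one, ended the call of 4 of the 216 values. Counts of members called moved by over 1.5 times in these cases. At 3 h the count of 5 was 10 with array weights, 2 at an adjusted p below 0.01, 8 over single features (taking each gene's feature with the lowest p) and 0 with runs as a fixed block. At 9 h the count of 10 was 0 with runs as a fixed block and 6 without arrays lacking over 1000 features, and at 24 h the count of 21 was 2 with that block. At 72 h the count of 26 was 12 at an adjusted p below 0.01 and 12 without those arrays, and at 5 days the count of 30 was 15 without them. At 7 days the count of 7 was 11 with array weights and 0 at an adjusted p below 0.01. At 9 days the count of 1 was 2 with quantile normalization, over genes on all arrays, over the 2 groups alone and with the replicate block, and 3 with array weights and over single features. At 14 days the count of 4 was 1 with scale normalization, 1 at an adjusted p below 0.01 and 0 without arrays lacking over 1000 features. After control ODN the count of 0 was 2 over genes on all arrays, with array weights and over single features, and 1 with a trended, robust spread. For CpG ODN against control ODN the count of 7 was 13 with array weights, 12 over single features, 3 over these groups alone and 4 at an adjusted p below 0.01. For 9 h against 3 h the count of 1 was 0 over these groups alone, at an adjusted p below 0.01, over single features, over complete features, with runs as a random or fixed block and without arrays lacking over 1000 features.

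Leaving out 1 array gave 4 to 5 members called at 3 h, 6 to 14 at 9 h, 16 to 27 at 24 h, 16 to 28 at 72 h, 22 to 30 at 5 days, 2 to 8 at 7 days, 1 to 1 at 9 days, 0 to 4 at 14 days and 0 to 8 after control ODN. It gave 5 to 9 for CpG ODN against control ODN, 0 to 1 for 9 h against 3 h and 30 to 34 for 72 h against 14 days. The change of Psmb9 over Psmb6 ranged from 0.79 to 0.95 at 3 h, 0.86 to 1.15 at 24 h, 1.11 to 1.60 at 72 h, 1.15 to 1.61 at 5 days, 0.69 to 1.08 at 7 days and 0.31 to 0.61 at 14 days. At 14 days it passed without replicate 1 (0.61, exact permutation test, adjusted p = 0.0459), and at 7 days it missed the threshold with scale normalization (0.66, adjusted p = 0.114). Psmb10 over Psmb7 at 7 days ranged from -1.06 to -0.87. Each passing pair lost its call in 9 of 10 omissions, where fewer splits of the arrays are possible. The causes of the other changes were not tested.

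Replicate numbers are not stated to pair the arrays. Same-numbered arrays of compared groups, with group means removed, correlated at -0.218 to 0.461, over 0.1 in 18 of 48 pairs. Differently numbered arrays were not set beside them, so whether the numbers pair arrays was not tested. With the replicate block, 4 members were called at 3 h, 8 at 9 h, 18 at 24 h, 21 at 72 h, 24 at 5 days and 2 at 9 days. The signal over background of the features, which limits the low values, is not known here.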
